A study of Mus musculus with 10 samples.

Results

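The 10 genes described here encode assembly factors of mitochondrial complex I, the NADH dehydrogenase at the entry of the respiratory chain: Ndufaf1, Acad9, Ecsit, Timmdc1, Ndufaf2, Ndufaf3, Ndufaf4, Ndufaf5, Ndufaf6 and Ndufaf7. They were found by symbol in the deposited table of normalized counts, where they are 10 of 45707 listed genes, and all 10 passed the filter for the genotype comparison. The table covers jejunum from 10 mice, 5 of them Vil-Cre controls and 5 Vil-Cre:NDI1, with 1 library per mouse. NDI1, an NADH dehydrogenase of the yeast Saccharomyces cerevisiae that consists of a single protein, oxidizes NADH without mammalian complex I, and the series asks whether its expression alters the transcriptome. The control mice carried the Villin-Cre transgene alone. The Vil-Cre:NDI1 mice carried the same Cre and an NDI1 sequence behind a lox-stop-lox cassette at ROSA26. All were males of 8 to 12 weeks that had fasted for 16 to 18 h, received water by gavage and were sampled 1 h later. Villin-Cre is active in intestinal epithelial cells, whereas the libraries hold RNA of the whole tissue. In such bulk RNA, fewer cells of a type and less RNA per cell cannot be told apart.

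Complex I is built from separately assembled modules with the help of proteins that are not part of the finished enzyme. NDUFAF1, ECSIT, ACAD9 and TIMMDC1 belong to the mitochondrial complex I assembly (MCIA) complex, which carries the growing proton-pumping membrane arm. NDUFAF3 and NDUFAF4 hold the quinone-binding Q module, NDUFAF5 hydroxylates an arginine of the Q module subunit NDUFS7, NDUFAF7 is a methyltransferase of early assembly, and NDUFAF6 is needed at an early step. NDUFAF2 acts late, when the NADH-binding N module is attached. Loss of such factors in humans causes mitochondrial disease with complex I deficiency.

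The start regions of these genes were searched for 4 short motifs of factors that bind many nuclear genes for mitochondrial proteins, and the matches are shown because they are what some of the genes have in common in sequence. RefSeq sequence of GRCm38.p6, from 250 bases before to 50 bases after the start, was at hand for 8 of the 10 genes, Acad9 and Ndufaf6 being the other two. The windows of Ndufaf4, at chr4:24897960-24897989 on the plus strand, and of Ndufaf5, at chr2:140170652-140170681 on the plus strand, are given 5′ to 3′ with the palindromic NRF1 motif of 10 bases in capitals.
Ndufaf4: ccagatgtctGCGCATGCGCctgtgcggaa
Ndufaf5: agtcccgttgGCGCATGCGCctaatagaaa
The motif began 113 bases before the start in Ndufaf4 and 16 bases after it in Ndufaf5. It was in 2 of the 8 windows, in 0.977% of 27025 RefSeq promoters of this length and in 1.96% of the 10302 promoters of tested genes.

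The ETS motif CCGGAAG was found in 3 of the 8 windows, all of MCIA genes, while the MCIA gene Acad9 had no window. The windows lie on the minus strand at chr2:119662834-119662863 for Ndufaf1, chr9:22085411-22085440 for Ecsit and chr16:38522653-38522682 for Timmdc1, and capitals mark the motif.
Ndufaf1: cgggaccacaaCCGGAAGcgtggcgaaccg
Ecsit: tcgactcgtaaCCGGAAGctccgtggctca
Timmdc1: tccgagagcttCCGGAAGtgagccggctgg
The motif began 18, 2 and 8 bases before the start in Ndufaf1, Ecsit and Timmdc1, and Timmdc1 also held 3 matches of its reverse complement CTTCCGG, the nearest of which overlapped the printed one. On either strand it was in 9.12% of all promoters and 17.4% of those of tested genes. The YY1 motif AAGATGGC (2.88% of all promoters) and the ERR motif TCAAGGTCA (0.407%), also searched on both strands, were in 0 of the 8 windows. These matches describe letters only and do not show binding.

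The libraries held 10145705 to 12371530 reads on genes. The NDI1 transgene, which checks the genotype labels, had 1 read in Vil-Cre 3 and 0 in the other Vil-Cre mice, and 982, 1371, 2575, 1394 and 1511 normalized counts in Vil-Cre:NDI1 mice 1 to 5. Its mean in these mice was at least 477-fold higher than a floor of 3 reads (limma, adjusted p = 7.14e-09). Markers of the jejunal epithelium were abundant in all libraries, with 368002 to 608714 normalized counts summed over 11 enterocyte markers in Vil-Cre mice and 555343 to 728429 in Vil-Cre:NDI1 mice. All 11 had a higher mean in Vil-Cre:NDI1 mice and all 6 goblet cell markers a lower one, with none past the threshold in limma.

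Ordered by level per length, Timmdc1 was the most abundant of the assembly factors and Ndufaf2 the least. The level is the normalized count divided by the summed length of all annotated exons, as a mean over the 10 mice. Timmdc1, an inner-membrane protein of the MCIA complex related to the protein import machinery, stood at 117 ± 15.3 normalized counts per kb (SD, n = 10). Ecsit followed at 91.4 ± 12.1 and Ndufaf1 at 72.1 ± 13.1 per kb, so that 3 of the 4 MCIA genes among the 10 led the order. The Q module chaperones Ndufaf3 and Ndufaf4 came next, at 59.7 ± 13.6 and 51.1 ± 7.82 per kb. Lower levels were found for Ndufaf6 (37.4 ± 15.3 per kb), the methyltransferase Ndufaf7 (31.3 ± 2.63), the hydroxylase Ndufaf5 (30.9 ± 5.45), the acyl-CoA dehydrogenase relative Acad9 (28.7 ± 4.51) and the late factor Ndufaf2 (24.6 ± 3.70). Every neighbouring pair in this order had overlapping ranges over the mice. Ecsit exceeded Ndufaf1 in 10 of 10 mice, whereas Ndufaf7 exceeded Ndufaf5 in only 5 of 10.

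The place of Acad9 in this order depended on the length used. Its annotated exons sum to 8192 bases, but its longest transcript has 3930, and with the longest transcript its level was 59.8 per kb and its rank 5 in place of 9. Ecsit, at 136 per kb, and Timmdc1, at 132 per kb, also changed places on that scale, while Ndufaf2 stayed lowest at 30.5 per kb.

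The assembly factors were expressed at the level of an ordinary gene and far below the subunits they help to assemble. The median of the 10 genes was 44.2 normalized counts per kb, against 44.5 for all genes tested, and the genes lay between the 35.9 and 72.2 percentiles. The median of 36 nuclear complex I subunits was 642 per kb, and 34 of the 36 exceeded Timmdc1, the exceptions being Ndufb2 (77.0 per kb) and Ndufab1 (101 per kb), picked out after their values were seen. Within each of the 10 mice the median subunit was 9.92- to 19.1-fold above the median assembly factor (two-sided exact sign-flip permutation test, p = 0.00195, the smallest that 10 mice allow), or 10.98- to 19.4-fold with the longest transcripts. The median of the assembly factors of complexes II to V was 1.71- to 2.84-fold above that of the 10 genes (exact sign-flip permutation p = 0.00195). Neither ratio differed between the genotypes beyond the spread over mice (exact permutation p = 0.325 and p = 0.135).

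**Figure D1:**
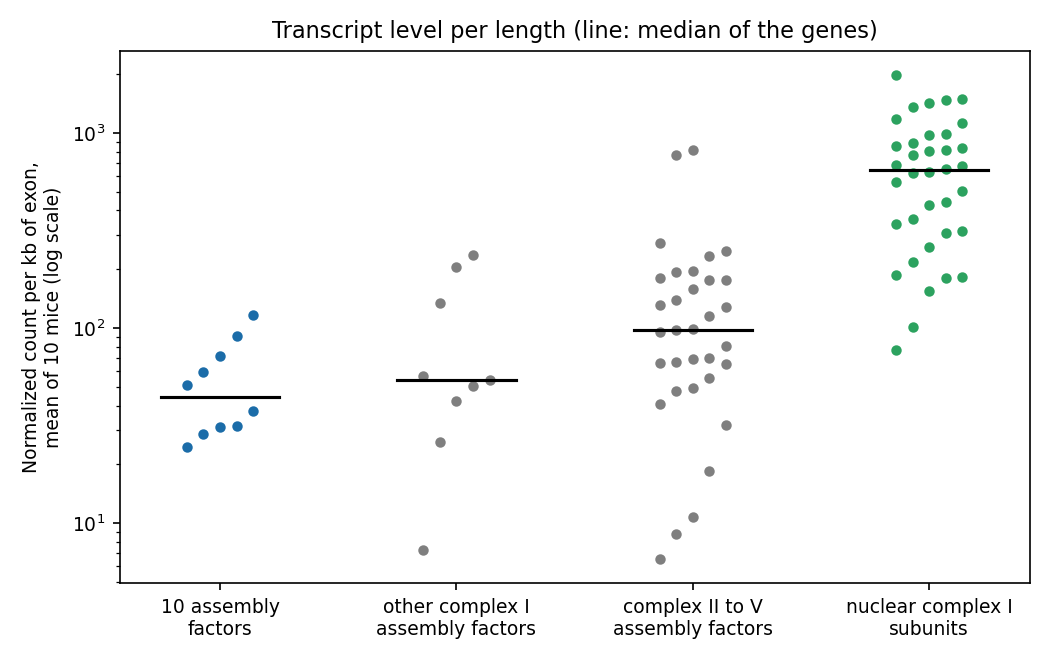
Mean normalized count per kb of exon over 10 mice (log scale) for each gene of 4 groups, 1 point per gene, with a line at the group's median. The 10 assembly factors lie between 24.6 and 117 per kb, and 34 of the 36 nuclear subunits lie above them.

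Ndufaf5, Ndufaf2 and Acad9 also stood far below a subunit they modify or a paralogue. Ndufaf5 was 16.8- to 31.5-fold lower per kb than Ndufs7, whose protein it hydroxylates. Among paralogues, Ndufaf2 was 17.8- to 23.8-fold lower than Ndufa12, the N module subunit it resembles, and Acad9 30.3- to 46.6-fold lower than Acadvl, a dehydrogenase of fatty acid oxidation. With the longest transcripts the gap of Acad9 narrowed to 27.7-fold at most. Each of these 3 ratios lay on the same side of 1 in 10 of 10 mice (exact sign-flip permutation p = 0.00195), and none differed between genotypes beyond the spread over mice (exact permutation p from 0.206 to 0.786). Timmdc1, at a mean of 117 per kb, stood above its relatives Timm17a (64.0), Timm17b (94.4) and Timm22 (63.1) and below Timm23 (383). These pairs were not tested.

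Partners within a module were closer in level. The ratio of Ecsit to Acad9 was 3.21 ± 0.327 (SD, n = 10), with a range of 2.69 to 3.69, and was the steadiest of the 5 partner ratios. Ndufaf1 stood at 0.792 ± 0.135 times the level of Ecsit and 2.53 ± 0.451 times that of Acad9, but the latter spanned 1 with the longest transcripts, at 0.974 to 1.64. The other ratios of these genes also depended on the length used. With the longest transcripts Ecsit to Acad9 ran from 1.92 to 2.63 and Ndufaf1 to Ecsit from 0.371 to 0.645. Timmdc1 was 1.68 ± 0.458 times as abundant as Ndufaf1. The ratio of Ndufaf3 to Ndufaf4, whose proteins act together, was less even, at 1.22 ± 0.400 with a range of 0.621 to 1.84, and fell below 1 in 3 mice (exact sign-flip permutation p = 0.230). It spanned 0.974 to 1.54 in the controls and 0.621 to 1.84 with NDI1. Between genotypes, the exact permutation p for these 5 ratios ran from 0.0794 for Ndufaf1 to Acad9 to 0.595 for Ndufaf3 to Ndufaf4, before any correction for 11 ratios.

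In the comparison of genotypes, none of the 10 assembly factors passed the threshold in limma, and none had an unadjusted p under 0.05. The share of all mouse genes called at an adjusted p of 0.05 was also 0% (0 of 14300), and 4.23% (605) had an unadjusted p under 0.05. DESeq2 and edgeR on the recovered reads likewise called 0 of the 10 and gave 0 with an unadjusted p under 0.05, while DESeq2 called 31 genes (0.183%), edgeR 1 (0.007%) and limma 1 (0.00699%), NDI1 included. Over all mouse genes 4.8% had an unadjusted p under 0.05 in DESeq2 and 4.65% in edgeR. The mean was higher in Vil-Cre:NDI1 mice on the log2 scale for 7 genes and lower for 3, where 51.2% of all genes were higher. The differences ran from -0.09 to 0.29 with a median of 0.08, against 0.01 over all genes tested. With libraries scaled to equal totals these medians were 0.02 and -0.06. Values of the genotypes overlapped for all 10 genes, and 0.692% of all genes had groups that did not overlap.

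**Figure D2:**
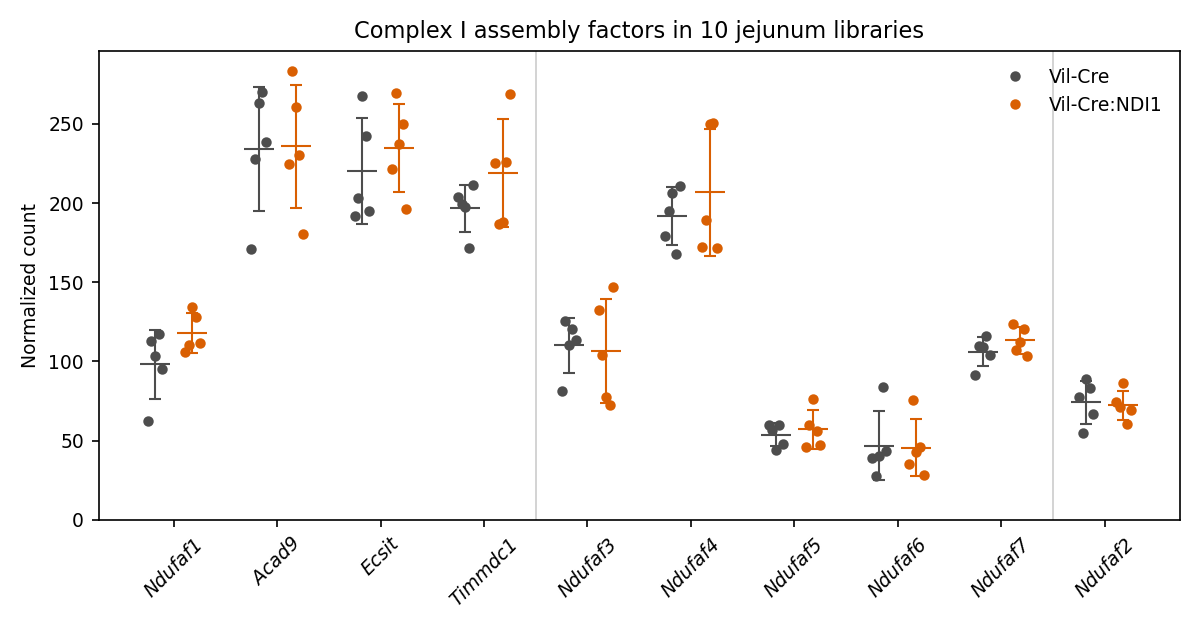
Normalized counts of the 10 assembly factors in Vil-Cre (grey) and Vil-Cre:NDI1 (orange) mice, 1 point per mouse, with the mean and SD of 5 mice. Vertical lines part the MCIA genes, the early and Q module genes, and the late factor Ndufaf2, and the groups overlap for every gene.

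The intervals of these differences were mostly narrow. The 95% interval of the fold change lay between 2-fold lower and 2-fold higher for 10 of 10 genes, against 79.6% of all genes tested, and within 1.5-fold for 8, against 53.5%. The exceptions at 1.5-fold were Ndufaf1, with a fold of 0.933 to 1.60, and Ndufaf6, with a fold of 0.603 to 1.61.

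The 4 MCIA genes among the 10 all had a positive log2 difference, with a median of 0.12, where 51.2% of all mouse genes were higher. Tmem126b, an MCIA protein outside the 10, had a negative one (-0.11). Ndufaf1 (ENSMUSG00000027305, chr2:119655446-119662827, minus strand) had the widest difference of the 10 and is an early chaperone of the membrane arm. Its normalized counts were 62.6, 113, 103, 117 and 95.2 in Vil-Cre mice 1 to 5 and 106, 110.2, 135, 128 and 112 in Vil-Cre:NDI1 mice 1 to 5. All 5 Vil-Cre:NDI1 mice lay above the Vil-Cre median, but only 2 lay above the highest Vil-Cre mouse, and Vil-Cre 1 stood below the rest. The means were 98.2 ± 21.7 and 118 ± 12.6 (SD, n = 5 each), and the log2 difference was 0.29 (SE 0.18, limma, unadjusted p = 0.130, adjusted p = 0.998). Without Vil-Cre 1 it was 0.14.

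Timmdc1 (ENSMUSG00000002846, chr16:38498347-38522663, minus strand) had 204, 199, 197, 172 and 212 normalized counts in Vil-Cre mice 1 to 5 and 225, 187, 188, 226 and 269 in Vil-Cre:NDI1 mice 1 to 5. Here 3 Vil-Cre:NDI1 mice exceeded the highest Vil-Cre mouse and the other two fell inside the Vil-Cre range. The log2 difference was 0.14 (SE 0.12, limma, unadjusted p = 0.263, adjusted p = 0.998), and it was 0.07 without Vil-Cre:NDI1 5, the highest mouse.

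Acad9 (ENSMUSG00000027710, chr3:36065979-36092853, plus strand), whose protein also has acyl-CoA dehydrogenase activity, had near-equal group means. Its normalized counts were 171, 228, 263, 270.0 and 239 in Vil-Cre mice 1 to 5 and 224, 283, 260.5, 230.1 and 181 in Vil-Cre:NDI1 mice 1 to 5. Each genotype held 1 mouse well below the others, and the means of 234 ± 39.4 and 236 ± 38.9 gave a log2 difference of 0.012 (SE 0.16, limma, adjusted p = 0.999), whose sign turned when every library was rescaled to the same total (-0.05). Ecsit (ENSMUSG00000066839, chr9:22072246-22085438, minus strand), also known from signalling of innate immunity, ranged from 192 to 267 normalized counts (median 204) in Vil-Cre and from 196 to 270 (median 237) in Vil-Cre:NDI1 mice. These ranges nearly coincided, and the log2 difference was 0.10 (SE 0.13, limma, adjusted p = 0.998). Opposite-strand exons of Gm16845 cover 24.0% of the exons of Ecsit and same-strand exons of Gm43079 cover 6.82% of those of Acad9, and their mean normalized counts were 12.5 and 16.6. Whether counting used the strand is not stated in the sources used here, so reads of Gm16845 cannot be told apart from those of Ecsit. Gm43079 lies on the same strand as Acad9, so the strand would not part their reads in shared exons.

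Of the 5 early and Q module genes, 3 had a positive and 2 a negative log2 difference, with a median of 0.08. Ndufaf3 (ENSMUSG00000070283, chr9:108565537-108567434, minus strand) had 81.3, 126, 110.2, 120.3 and 114 normalized counts in Vil-Cre mice 1 to 5 and 132, 104, 77.5, 72.5 and 147 in Vil-Cre:NDI1 mice 1 to 5. The Vil-Cre:NDI1 mice lay on both sides of the Vil-Cre range, with 2 above its top and 2 below its bottom. The log2 difference was -0.09 (SE 0.22, limma, adjusted p = 0.998), with an SD of 32.8 in Vil-Cre:NDI1 and 17.3 in Vil-Cre mice. Opposite-strand exons of Impdh2, an enzyme of guanine nucleotide synthesis with a mean of 558 normalized counts, cover 48 bases (2.65%) of the exons of Ndufaf3, and the share of its counts that Impdh2 could contribute was not tested.

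Its partner Ndufaf4 (ENSMUSG00000028261, chr4:24898083-24905001, plus strand) had 179, 195, 206, 168 and 211 normalized counts in Vil-Cre mice 1 to 5 and 173, 189.5, 249.8, 250.7 and 171 in Vil-Cre:NDI1 mice 1 to 5. The high values were those of Vil-Cre:NDI1 3 and 4, the same mice in which Ndufaf3 was lowest. The log2 difference was 0.09 (SE 0.14, limma, adjusted p = 0.998), and it was 0.02 without either of these mice in turn.

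Ndufaf6 (ENSMUSG00000050323, chr4:11051045-11076205, minus strand), a relative of phytoene and squalene synthases, varied most over the mice. Its normalized counts were 39.2, 27.4, 40.1, 83.9 and 43.7 in Vil-Cre mice 1 to 5 and 35.3, 75.6, 42.6, 46.0 and 28.2 in Vil-Cre:NDI1 mice 1 to 5, so that 1 mouse of each genotype was high. The highest value was 3.07 times the lowest, and the coefficient of variation was 46.1% in Vil-Cre and 39.9% in Vil-Cre:NDI1 mice. The log2 difference of -0.02 (SE 0.32, limma, adjusted p = 0.999) became 0.21 without Vil-Cre 4 and -0.22 without Vil-Cre:NDI1 2.

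Ndufaf7 (ENSMUSG00000024082, chr17:78937136-78948052, plus strand) was the steadiest, from 91.6 to 116 normalized counts (median 109) in Vil-Cre and between 103 and 124 (median 112) in Vil-Cre:NDI1 mice. Its highest value was 1.35 times its lowest, and the log2 difference was 0.10 (SE 0.12, limma, adjusted p = 0.998). Ndufaf5 (ENSMUSG00000027384, chr2:140170649-140203689, plus strand) ranged from 44.1 to 59.8 normalized counts (median 56.9) in Vil-Cre and from 46.1 to 76.5 (median 55.8) in Vil-Cre:NDI1 mice. The medians nearly coincided, and the log2 difference was 0.08 (SE 0.19, limma, adjusted p = 0.998).

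The late factor Ndufaf2 (ENSMUSG00000068184, chr13:108002715-108158623, minus strand) had 77.6, 54.7, 89.2, 82.9 and 67.0 normalized counts in Vil-Cre mice 1 to 5 and 74.5, 71.1, 86.2, 60.7 and 69.3 in Vil-Cre:NDI1 mice 1 to 5. All Vil-Cre:NDI1 values fell inside the Vil-Cre range, and the log2 difference was -0.03 (SE 0.17, limma, adjusted p = 0.998). Exons of the opposite-strand lincRNA B230220B15Rik cover 65.65% of its exons, and the share of its counts that this lincRNA could contribute was not tested.

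**Figure D3:**
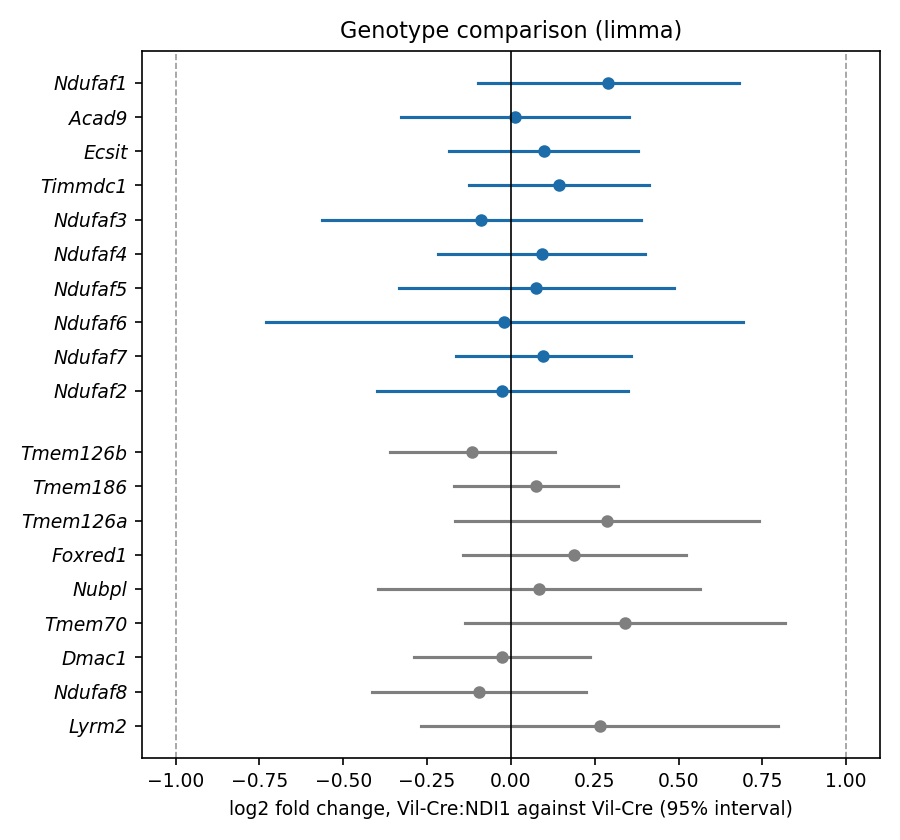
Log2 fold change of Vil-Cre:NDI1 against Vil-Cre mice with its 95% interval (limma, 5 mice a group) for the 10 assembly factors (blue) and 9 other complex I assembly factors (grey), with dashed lines at 2-fold. Every interval crosses 0 and lies between the dashed lines.

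Most of these genes varied more between mice of a genotype than read counting alone would give. The variance within genotypes was 8.72 times the counting variance for Ndufaf6, 6.53 times for Acad9 and 6.24 times for Ndufaf3. It was 0.716 times for Ndufaf7, the sole gene of the 10 at or under the counting variance. The median over the 10 was 3.72, against 5.36 for 4612 genes of like mean count. The fewest reads on any of the 10 genes in any library were 24, for Ndufaf6, and the most 311, for Acad9.

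Other genes of the pathway gave the same count of calls. Of 10 further complex I assembly factors, 9 were matched and tested, 6 with a positive and 3 with a negative log2 difference and a median of 0.08, and 0 passed in limma or had an unadjusted p under 0.05. The widest differences were 0.34 for Tmem70 (SE 0.22, unadjusted p = 0.145, limma), a membrane factor that also serves ATP synthase, and 0.29 for Tmem126a (SE 0.21, unadjusted p = 0.193, limma). Tmem126b, another MCIA protein, stood at -0.11 and Ndufaf8, the partner of Ndufaf5, at -0.10. Their levels ran from 7.28 per kb for Nubpl, an iron-sulfur cluster factor, to 236 per kb for Ndufaf8, wider than the span of the 10 genes. Tmem126b stood at 26.2 per kb, between Ndufaf2 and Acad9.

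Of the 36 nuclear complex I subunits, 31 had a positive and 5 a negative log2 difference, where 51.2% of all mouse genes were higher. Their median was 0.06, against 0.01 over all genes tested, and 0 passed the threshold in limma. Equal totals moved the median of all genes to -0.06, and the subunits are not given on that scale. Before adjustment, 2 were under 0.05, namely Ndufa10 (log2 difference 0.20, SE 0.07) and Ndufa9 (0.18, SE 0.08), both with an adjusted p = 0.998 in limma. The median was 0.12 for 10 N module, 0.05 for 6 Q module and 0.05 for 20 membrane arm subunits, and 0.10 for the 7 subunits encoded in mitochondrial DNA. The targets and paralogues named above differed little, at 0.02 for Ndufs7, 0.11 for Ndufa12 and 0.10 for Acadvl. Of 32 assembly factors of complexes II to V, 19 had a positive and 13 a negative log2 difference, with a median of 0.02, and none passed in limma. Atpaf1, an assembly factor of ATP synthase, had the smallest p among them (0.57, SE 0.12, unadjusted p = 0.000739, adjusted p = 0.816, limma), followed by Cox15 of haem A synthesis (0.26, SE 0.11, unadjusted p = 0.0397, limma).

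By library, the assembly factors were lowest in Vil-Cre 1 and highest in Vil-Cre 4. The median log2 deviation of the 10 genes from their means over all mice was -0.19 in Vil-Cre 1 and 0.13 in Vil-Cre 4, a span of 0.32. In Vil-Cre:NDI1 mice it ran from -0.14 in mouse 5 to 0.12 in mouse 3, inside the range of the controls. The subunits did not follow the same order of mice, being lowest in Vil-Cre:NDI1 4 (-0.20), where the assembly factors stood at 0.11, and highest in Vil-Cre 3 (0.15). The enterocyte markers were lowest in Vil-Cre 5 (-0.64), where the assembly factors stood at -0.03, and highest in Vil-Cre:NDI1 5 (0.27), where they stood at -0.14. The part of cell composition in these deviations was not tested.

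**Figure D4:**
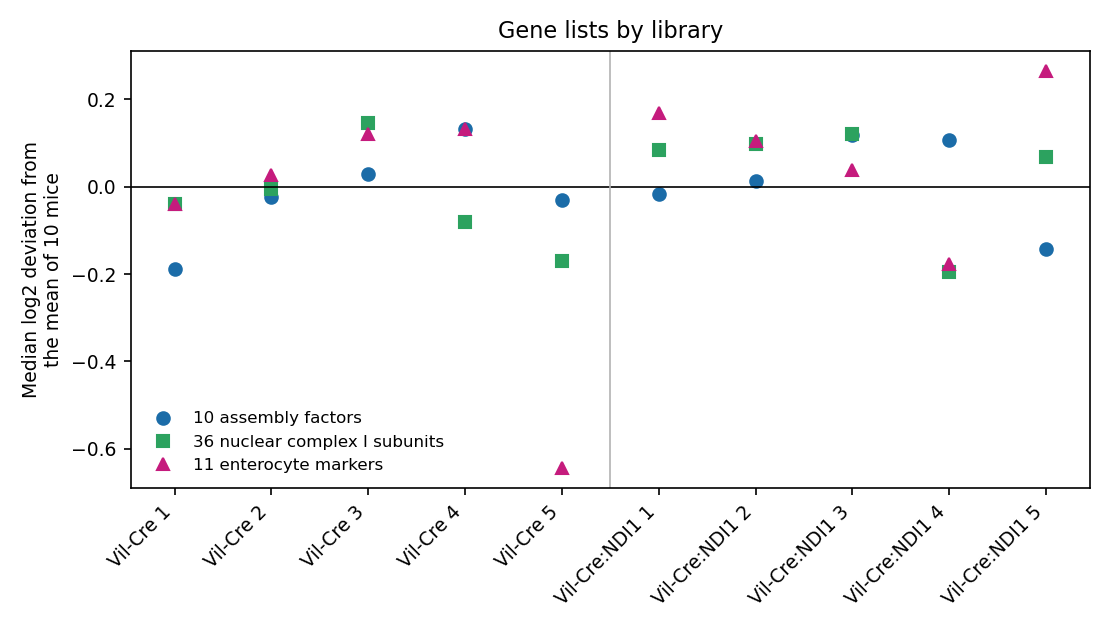
Median log2 deviation from the mean of 10 mice for the 10 assembly factors (circles), 36 nuclear complex I subunits (squares) and 11 enterocyte markers (triangles) in each library, with controls left of the vertical line. The assembly factors stay between -0.19 and 0.13, while the enterocyte markers reach -0.64 in Vil-Cre 5.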

How the data were processed

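RNA was sequenced from jejunum, 1 library per mouse, and samples were grouped by the genotype in their titles. The authors trimmed the reads, aligned them with STAR to GRCm38 with NDI1 added, counted them per gene with Salmon and scaled each library by its DESeq2 size factor, so the deposited values are a signal (normalized counts). Each library's non-zero values were 100% whole multiples of its smallest (tolerance 0.01), which gave the reads. Vil-Cre 3 and Vil-Cre 4 have steps near 1, so count tests were also run on the other 8 libraries, a choice made after seeing the data. Size factors differed by up to 1.29-fold, and no sample column was left unused.

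Genotypes were compared with limma 3.58.1 (R 4.3.3, variance trend) on log2(value + 1), two-sided, over genes with at least 10 normalized counts in 5 or more mice, with p adjusted by Benjamini-Hochberg and a threshold of 0.05. Differences on this scale understate those of low genes. No replicates were near-identical (chi-square per gene of 13.2 to 61.9). The recovered reads were tested with DESeq2 1.42.0 and edgeR 4.0.16. Exon lengths and positions came from GENCODE M21, and intervals and floors cover counting and sampling error only. The scripts were tested on simulated data.

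The members, gene lists and tests were chosen with earlier results of these data known. Named genes are NDI1, the 10 members, the other complex I assembly factors, subunits or relatives of a member (1 of them is not reported here), and the 2 genes with the smallest p in other lists. Coa1 and Ndufb1 were not matched by symbol. Alternatives were pseudocounts of 0.1 and 8, no filter, a filter of 50, equal totals, the count tests, a replicate block, longest transcripts and leaving out each mouse, where the filter needed 4 mice.

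Marker lists of 14 cell types gave 0 calls in limma. The median log2 difference was 0.24 for enterocyte, -0.21 for goblet, -0.45 for tuft, -0.13 for Paneth, -0.02 for enteroendocrine, 0.01 for stem and cycling, -0.38 for B and plasma, -0.14 for T, -0.55 for myeloid, -0.16 for fibroblast, -0.07 for smooth muscle, 0.02 for endothelium, 0.21 for enteric neuron and glia and -0.06 for adipocyte markers. Paralogues of the members had a median of 0.10 (5 of 6 higher; the smallest p were those of Timm17a, 0.12, and Acadvl, 0.10). Ms4a1, Adipoq, Plin1 and Lep were listed at 0 in 1 to 5 mice.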

Additional observations from a re-analysis of the deposited data

Results flagged for a closer look

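Ndufaf6 in Vil-Cre 4, at 83.9 normalized counts (83 reads), stood apart from the other Vil-Cre mice, which ranged from 27.4 to 43.7. Its gap to the nearest of them was 0.711 of the group's range, against Dixon's 95% critical value of 0.71, so it passed narrowly. After scaling to equal totals this share was 0.641, under that value. Chance passes about 1 in 20 groups, or 1.05 of the 21 groups examined, and 1 passed. Vil-Cre:NDI1 2 was also high in its group, at 75.6 normalized counts.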

How the results depend on the processing

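No assembly factor passed the threshold under any alternative, the lowest adjusted p being 0.428 (Ecsit, DESeq2 on 8 libraries), and 182 of 199 alternative values kept their direction. The count of genes called, 1 (NDI1), became 2 with a filter of 50 (Vkorc1l1 added), 31 with DESeq2 and 276 with DESeq2 on 8 libraries, and 1 to 3 with 1 mouse left out. It was 2 without Vil-Cre:NDI1 1 (Gm13304 added), 2 without Vil-Cre:NDI1 2 (Gm20708 added) and 3 without Vil-Cre:NDI1 5 (Vkorc1l1 and Hmcn1 added), genes named after their values were seen. The cause was not tested. The log2 difference of NDI1, with 0 or 1 read in controls, depended on the pseudocount (13.17 with 0.1, 10.34 with 1 and 7.51 with 8) and is no measure of its fold. With 1 mouse left out it was 10.14 to 10.54 at a pseudocount of 1, the median of the 10 genes 0.02 to 0.13, and the ratio of the highest to the lowest level per length 4.55 to 4.90. That median was 0.02 with equal totals, where the median of all genes was -0.06, and 0.14 (DESeq2) and 0.13 (edgeR) on 8 libraries. With 1 mouse left out, Timmdc1 ran from 0.07 to 0.20, Ndufaf4 from 0.02 to 0.15, Ecsit from 0.05 to 0.17, Ndufaf7 from 0.05 to 0.13 and Ndufaf1 from 0.14 to 0.36. The sign turned for Acad9 with equal totals (-0.051), for Ndufaf6 on 8 libraries (0.31 with DESeq2, 0.30 with edgeR) and for Ndufaf2 on 8 libraries (0.12 with both). It also turned with 1 mouse left out for Acad9 (-0.10 to 0.10, turned without Vil-Cre 1 or Vil-Cre:NDI1 2 or 3), Ndufaf2 (-0.13 to 0.044, Vil-Cre 3 or 4 or Vil-Cre:NDI1 4), Ndufaf3 (-0.22 to 0.036, Vil-Cre:NDI1 3 or 4), Ndufaf5 (-0.035 to 0.15, Vil-Cre:NDI1 3) and Ndufaf6 (-0.22 to 0.21, Vil-Cre 4 or Vil-Cre:NDI1 1 or 5). Same-numbered mice showed no strong shared deviation (correlations -0.116 to 0.136), which cannot exclude a weak pairing. The fit with the replicate block called 1 gene and none of the 10. Ndufaf6 was not tested with the filter of 50. With 5 mice a group, the interval reached past 1.5-fold for Ndufaf1 and Ndufaf6, and reads on Ndufaf6 were as few as 24.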
